A study of Homo sapiens with 8 samples.

Results

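The mevalonate arm of cholesterol synthesis is the run of enzymes that turns acetyl-CoA into farnesyl diphosphate. Its members here were 7 genes taken by name, ACAT2, HMGCS1, MVK, PMVK, MVD, IDI1 and FDPS, out of 86369 gene rows in the count table. Any other enzyme of the arm is not analysed here. All 7 passed the filter on low counts and were among the 13840 genes tested.

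The cells were HepG2, an established human hepatocellular carcinoma line, kept in medium with fetal bovine serum. They received a negative control siRNA (siCtrl, 4 libraries) or an siRNA against NAT10 (siNAT10, 4 libraries), and RNA was taken 2 days later. NAT10 is an RNA cytidine acetyltransferase. By its label each library belongs to batch 1 (replicates 1 and 2) or batch 2 (replicates 3 and 4), with both siRNAs in each. Whether replicates were separate cultures is not stated, so p-values measure only the spread between these libraries, which may be technical. Only 1 cell line was used, and the siRNA sequences are not given in the sources used here.

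The arm begins when ACAT2, the cytosolic thiolase, joins acetyl-CoA units and HMGCS1 adds a further one to give HMG-CoA. MVK and PMVK phosphorylate mevalonate in turn, and MVD decarboxylates the product to isopentenyl diphosphate. IDI1 interconverts that unit with its allylic isomer, and FDPS condenses them into farnesyl diphosphate, the branch point towards squalene and sterols on one side and protein prenylation, dolichol and ubiquinone on the other. In liver cells the genes are known as a set driven by SREBP-2, the sterol-sensitive transcription factor encoded by SREBF2, which acts together with the general promoter factors NF-Y and Sp1.

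Promoter sequence was set beside the expression values because the arm is known as a co-regulated set. Of the 7 genes, 4 had an entry in the RefSeq promoter table (GRCh38.p14; 250 bases before to 50 after the start of the gene): MVK, PMVK, MVD and FDPS. ACAT2, HMGCS1 and IDI1 had none. The 250 bases before each start are given on the gene's own strand, with the NF-Y box CCAAT, or ATTGG where it lies on the other strand, in capitals. MVK is at chr12:109573544-109573793 (plus), PMVK at chr1:154936720-154936969 (minus), MVD at chr16:88663092-88663341 (minus) and FDPS at chr1:155308616-155308865 (plus).
MVK: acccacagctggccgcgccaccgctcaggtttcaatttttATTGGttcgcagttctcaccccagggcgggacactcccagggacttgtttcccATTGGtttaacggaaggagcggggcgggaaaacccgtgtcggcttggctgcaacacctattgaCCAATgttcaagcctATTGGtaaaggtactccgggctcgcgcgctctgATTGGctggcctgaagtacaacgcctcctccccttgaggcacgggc
PMVK: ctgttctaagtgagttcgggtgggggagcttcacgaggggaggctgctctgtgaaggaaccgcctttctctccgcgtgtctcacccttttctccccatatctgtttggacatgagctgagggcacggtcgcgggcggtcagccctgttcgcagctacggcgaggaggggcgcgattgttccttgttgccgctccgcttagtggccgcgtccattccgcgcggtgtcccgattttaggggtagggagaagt
MVD: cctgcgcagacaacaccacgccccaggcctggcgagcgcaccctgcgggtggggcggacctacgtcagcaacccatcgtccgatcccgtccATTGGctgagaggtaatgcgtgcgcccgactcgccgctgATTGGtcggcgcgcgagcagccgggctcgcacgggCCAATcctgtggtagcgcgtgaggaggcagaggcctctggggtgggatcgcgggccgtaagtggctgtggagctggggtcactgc
FDPS: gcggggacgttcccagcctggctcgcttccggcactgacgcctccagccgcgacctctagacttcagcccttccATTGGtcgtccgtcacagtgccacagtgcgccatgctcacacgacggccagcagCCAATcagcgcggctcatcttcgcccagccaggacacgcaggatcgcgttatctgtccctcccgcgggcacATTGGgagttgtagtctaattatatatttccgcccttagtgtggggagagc

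MVK held 5 such boxes, MVD 3 and FDPS 3, and PMVK held 0. The box was in 3 of 4 member windows and in 34.61% of all 35116 windows of the same length. GGGCGG, the Sp1 box, read on both strands, was in 4 of 4 against 44.95%. That box holds only G and C. The windows of MVK, PMVK, MVD and FDPS were 60.7%, 63.3%, 69.0% and 61.0% G and C, all above the median of 58.7% over all windows. The part of this in the matches was not tested. The sterol regulatory element searched as TCACNCCAC on both strands was in 0 of 4 against 1.13%, and the E-box CACGTG in 0 of 4 against 7.26%. A match is a description of letters only. Only these exact letters were searched, so 0 matches does not show that a promoter lacks a sterol element. No searched motif overlapped another in these windows. The RefSeq start of MVK lies 290 bases from that of MMAB, which runs the other way. MMAB encodes the adenosyltransferase that makes the active form of vitamin B12. By these RefSeq starts, the boxes shown for MVK lie between both genes. The coordinates given below with the Ensembl identifiers differ from the RefSeq starts. There MVK starts at 109573255, so its printed window lies inside the gene. By those coordinates the printed windows of MVD (gene end 88663161, minus strand) and FDPS (gene start 155308748) also reach into their genes.

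The knockdown was measured first, in CPM, the count divided by the TMM-scaled library size. NAT10 stood at 44.7, 39.2, 77.8 and 48.9 CPM in siCtrl replicates 1 to 4, and at 13.1, 12.2, 20.1 and 22.3 CPM in siNAT10. The fit gave a log2 fold change of -1.66, standard error 0.14 (edgeR adjusted p 2.0e-05), and every siNAT10 library lay below every siCtrl library. Library totals ran from 9731718 to 27977110 counts (lowest in siNAT10 replicate 4, highest in siNAT10 replicate 2) and TMM factors from 0.949 to 1.053. Hepatocyte markers, among them ALB and AFP, summed to 9390 to 9870 CPM in siCtrl and to 7560 to 8130 CPM in siNAT10, with no overlap. ALB was the largest part of that sum, at 4270 to 4630 CPM in siCtrl and 3230 to 3640 CPM in siNAT10. Of 9, 8 were tested, 6 had an estimate below 0 and 1 was called, TF (transferrin, -0.49). The 2 above 0 were FGB (0.37, edgeR adjusted p 0.17) and HNF4A (0.09, edgeR adjusted p 0.74). Of 12 fibroblast, immune and endothelial markers, 5 had no count in any library (COL1A2, DCN, LUM, PTPRC and CD3E), and LYZ held nearly all of the summed 332 to 554 CPM of the immune list and was called lower (-0.42). The part of these shifts in the members' values was not tested. In such bulk RNA of 1 cell line, fewer cells with a marker's RNA and less of that RNA per cell cannot be told apart.

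None of the 7 enzymes was called between siNAT10 and siCtrl. With batch and siRNA as terms, edgeR's quasi-likelihood test called 0 of 7 at an adjusted p under 0.05, where 2.28% of all tested genes were called. DESeq2 called 0 of 7, against 4.98% of genes. At an unadjusted p under 0.05 edgeR picked 1 of 7, FDPS, against 15.7% of all tested genes. An estimate below 0 was found for 6 of 7, all but MVK, which is 85.7% against 50.3% of all genes tested. The median log2 fold change of the members was -0.06, beside -0.0024 for all tested genes and a median standard error of 0.14. The direction of 6 of 7 was the same with RLE size factors and with library size alone, and 4 to 7 members were lower when a library was left out.

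FDPS had the lowest p of the set. Farnesyl diphosphate synthase is the enzyme that closes the arm and the known target of the nitrogen-containing bisphosphonate drugs. Its gene (ENSG00000160752, GRCh38 chromosome 1, 155308748 to 155320666, plus strand) stood at 147, 112, 173 and 115 CPM in siCtrl replicates 1 to 4. In siNAT10 it stood at 87.0, 124, 128 and 86.2 CPM. The groups overlapped, since siNAT10 replicates 2 and 3 lay above siCtrl replicates 2 and 4. The means were 137 ± 29.2 and 106 ± 22.7 CPM (SD, n = 4 in each), and the estimate was -0.36 on the log2 scale, standard error 0.16, with a 95% interval of -0.70 to -0.03. That is 77.8% of the siCtrl level, with an interval of 61.7% to 98.1%. The unadjusted p was 0.035 and the adjusted p 0.27 in edgeR's test, and the exact two-sided permutation p was 0.17 over 70 arrangements and 0.22 over the 36 that exchange labels within batches. Those designs cannot give less than 0.029 and 0.056.

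The FDPS estimate was below 0 in each of 17 other settings, with no call in any. It was -0.29 in batch 1 and -0.43 in batch 2. With siCtrl replicate 3 left out, the library with the highest FDPS level, it was -0.21. With the replicate number as a block the adjusted p was 0.12, and it was 0.064 with no filter on low counts, the lowest adjusted p of any member in any setting.

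**Figure D1:**
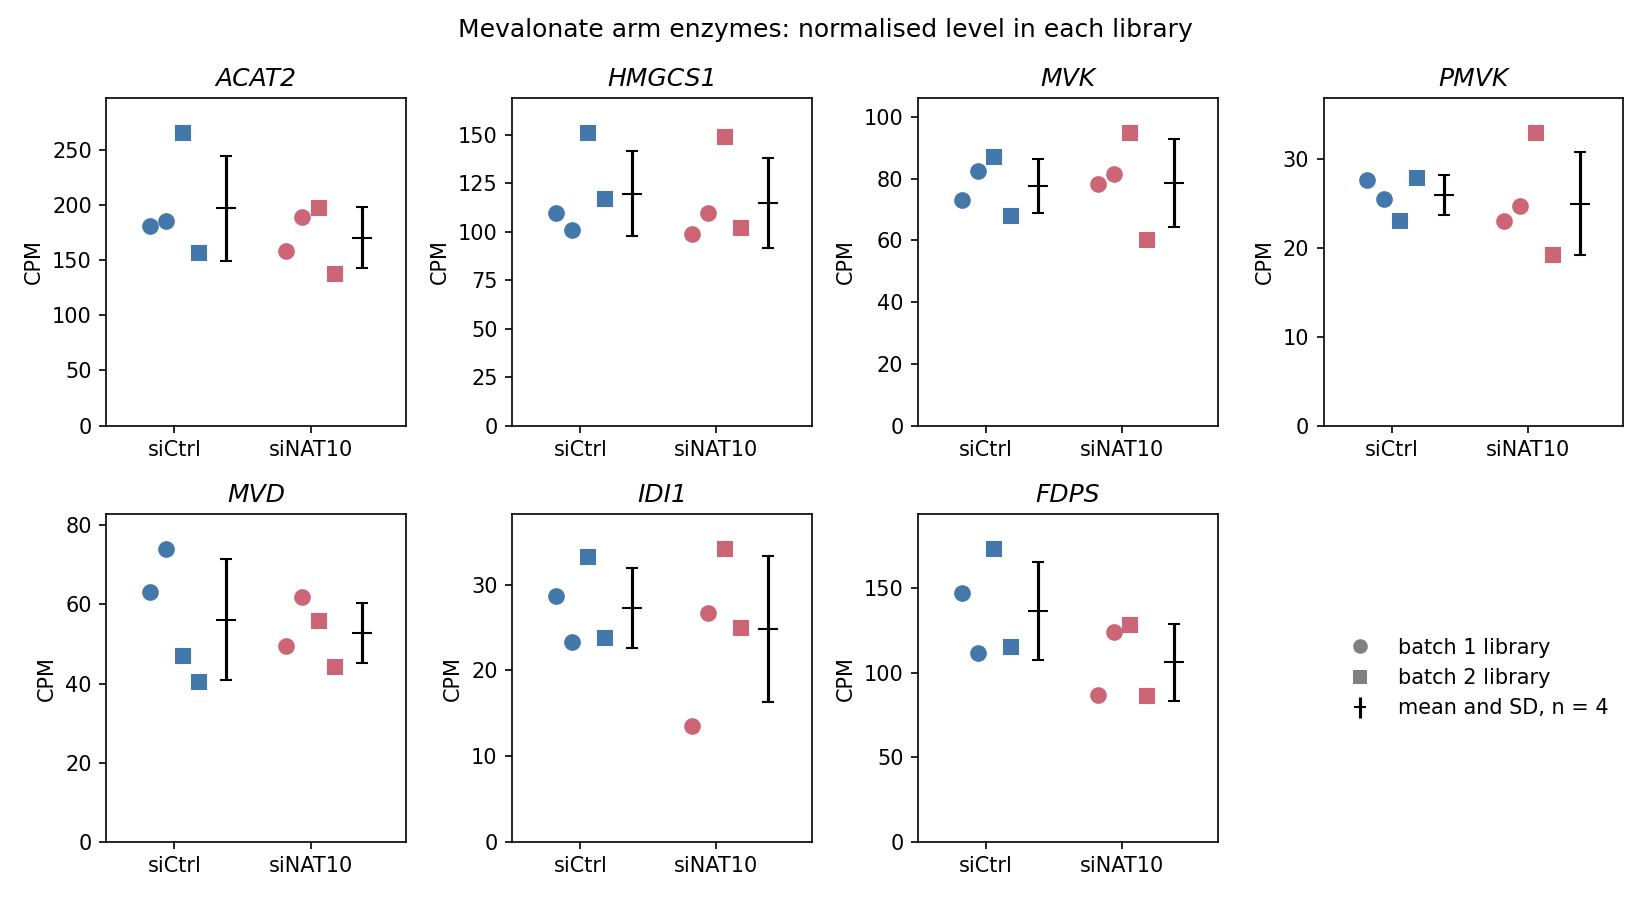
Normalised level (CPM, y axis from 0) of each of the 7 enzymes in the 4 siCtrl and 4 siNAT10 libraries, with circles for batch 1, squares for batch 2, and a bar for the mean and SD of 4 libraries. The groups overlap in every panel; FDPS has the largest gap between means, 137 against 106 CPM.

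The enzymes that build HMG-CoA were next. ACAT2 makes acetoacetyl-CoA in the cytosol (ENSG00000120437, chromosome 6, 159762045 to 159779112, plus strand). It was the most counted of the 7, at 181, 185, 265 and 156 CPM in siCtrl and at 158, 189, 197 and 137 CPM in siNAT10. The siNAT10 range lay inside that of siCtrl except for replicate 4, and siCtrl replicate 3 stood alone at the top. The log2 estimate was -0.20, standard error 0.15, with an interval of -0.53 to 0.12 (edgeR adjusted p 0.57). Without siCtrl replicate 3 it was 0.00099, and without siNAT10 replicate 4 it was -0.081. TCP1, a chaperonin subunit gene, runs over the last 500 bases of ACAT2 on the other strand, at 262 CPM on average with a log2 fold change of 0.0012. Whether counting used strand is not given in the sources used here, so reads of TCP1 and ACAT2 cannot be told apart there.

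HMGCS1, the cytosolic HMG-CoA synthase (ENSG00000112972, chromosome 5, 43287470 to 43313512, minus strand), stood at 110, 101, 151 and 117 CPM in siCtrl and at 99.1, 110, 149 and 102 CPM in siNAT10. Replicate 3 was the highest library of both groups. The log2 estimate was -0.05 (standard error 0.12), and its interval of -0.31 to 0.21 leaves a level between 80.4% and 116% of siCtrl.

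The 3 steps from mevalonate to isopentenyl diphosphate had small estimates. MVK, mevalonate kinase (ENSG00000110921, chromosome 12, 109573255 to 109598125, plus strand), stood at 73.1, 82.3, 87.0 and 67.9 CPM in siCtrl. In siNAT10 it stood at 78.1, 81.5, 94.7 and 60.1 CPM, with both the highest and the lowest of the 8 values. Its log2 fold change of 0.02 had an interval of -0.26 to 0.30 (edgeR adjusted p 0.96).

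PMVK, phosphomevalonate kinase (ENSG00000163344, chromosome 1, 154924740 to 154936719, minus strand), had the lowest mean siCtrl level, at 27.6, 25.5, 23.0 and 27.8 CPM in siCtrl. The siNAT10 values were 23.0, 24.7, 32.9 and 19.2 CPM, and they enclosed the siCtrl range. The coefficient of variation was 8.60% in siCtrl and 23.1% in siNAT10. The log2 fold change was -0.06 with an interval of -0.36 to 0.25.

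MVD, mevalonate diphosphate decarboxylase (ENSG00000167508, chromosome 16, 88651935 to 88663161, minus strand), showed the largest difference between batches within siCtrl. In siCtrl it stood at 63.2 and 73.9 CPM in batch 1 and at 46.9 and 40.4 CPM in batch 2. In siNAT10 it stood at 49.5 and 61.8 CPM in batch 1 and at 55.8 and 44.3 CPM in batch 2. Both siNAT10 libraries were thus below both siCtrl libraries in batch 1, and in batch 2 the values interleaved. The siCtrl mean of batch 2 was 0.65 lower than that of batch 1 on the log2 scale, and the siNAT10 mean 0.15 lower. The pooled log2 fold change was -0.06 with an interval of -0.33 to 0.22 (edgeR adjusted p 0.88).

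The last 2 steps act on the isopentenyl unit, and FDPS is described above. IDI1, isopentenyl diphosphate isomerase (ENSG00000067064, chromosome 10, 1039152 to 1049119, minus strand), stood at 28.7, 23.3, 33.2 and 23.8 CPM in siCtrl. In siNAT10 it stood at 13.5, 26.7, 34.1 and 24.9 CPM. Only siNAT10 replicate 1 lay outside the siCtrl range by more than 1 CPM, with 246 counts (exact Poisson 95% interval 216 to 279, counting error only). The log2 estimate was -0.16, with the largest standard error of the 7 (0.19) and an interval of -0.56 to 0.23. Without siNAT10 replicate 1 it was 0.04. IDI2, its paralog, had no count in any library.

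**Figure D2:**
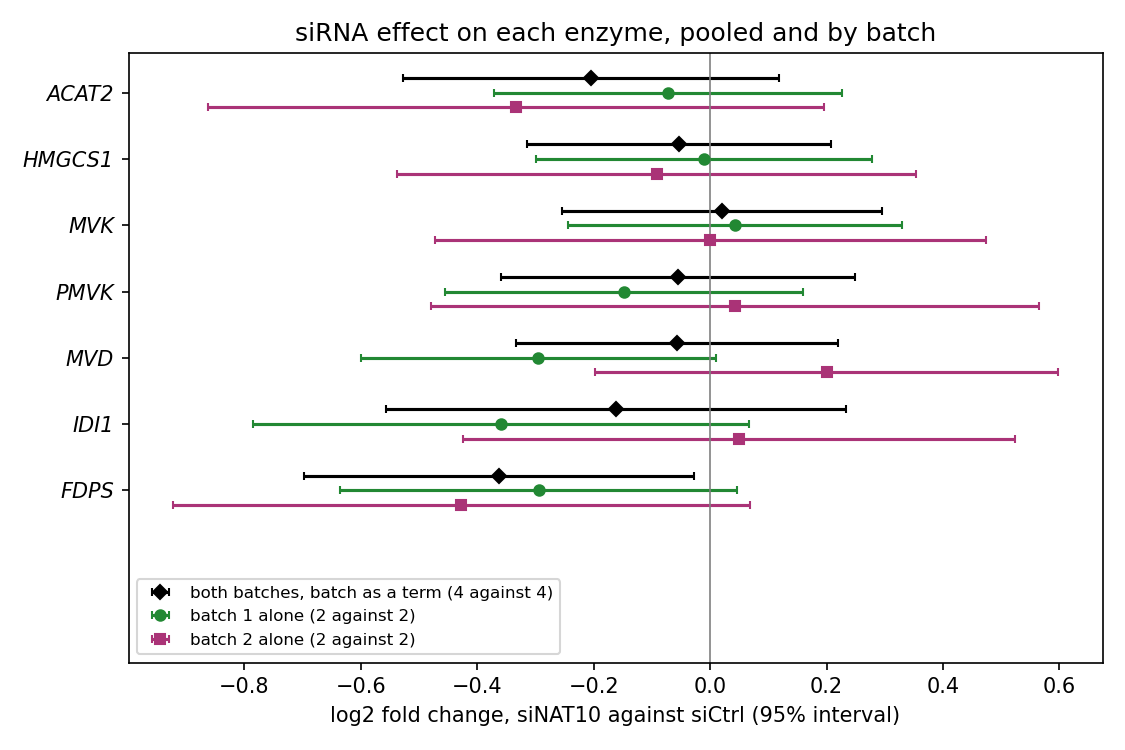
Fitted log2 fold change of siNAT10 against siCtrl for each enzyme (x axis) with its 95% interval, from the fit over both batches (black diamonds) and from each batch alone (green circles, batch 1; purple squares, batch 2). Of the pooled intervals only that of FDPS, -0.70 to -0.03, lies on 1 side of 0, and it does so before adjustment over all genes.

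The intervals say how large a change the data leave room for. Over the 6 enzymes other than FDPS, the lower ends of the 95% intervals ran from 68.0% of the siCtrl level (IDI1) to 83.8% (MVK), and the upper ends from 109% (ACAT2) to 123% (MVK). These values do not show that the levels were equal. Counting was not the limit for most of these genes: the lowest count of a member in a library was 196 for PMVK, a relative counting error of 7.14%, and 1402 for ACAT2, an error of 2.67%. The spread between libraries was larger, with coefficients of variation of 8.60% to 27.2% in siCtrl and 14.4% to 34.4% in siNAT10.

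Annotated neighbours and copies were examined for what they could add to the counts. RUSC1-AS1 overlaps the last 500 bases of FDPS on the other strand and had at most 0.867 CPM, and IDI2-AS1 overlaps those of IDI1 and had at most 0.289 CPM. ENSG00000261604 overlaps those of HMGCS1 on the other strand and had 0 counts. The 8 annotated FDPS pseudogenes reached at most 0.157 CPM and the 3 of IDI1 had 0. Reads lost to such copies in counting were not measured.

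The batches were then compared. Batch 1 alone and batch 2 alone each called 0 of 7 members in edgeR, against 1.19% and 0% of genes. In batch 2 alone NAT10 itself was not called (log2 estimate -1.58, edgeR adjusted p 0.086), so the lack of calls there says little about the members. In a model that lets the siRNA effect differ by batch, edgeR called that difference for 0 of 7 members and 0% of all tested genes. An unadjusted p under 0.05 picked 0 of 7, against 3.04%. MVD came nearest. Its log2 estimate was -0.30 for batch 1 and 0.20 for batch 2, and the gap of 0.50 had an interval of -0.02 to 1.01 (edgeR unadjusted p 0.057, adjusted p 1). IDI1 had -0.36 and 0.05, and a difference of 0.41 with an interval of -0.38 to 1.20. ACAT2, HMGCS1 and MVK differed between batches by -0.26, -0.08 and -0.04. PMVK differed by 0.20 and FDPS by -0.13.

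No member had every siNAT10 library below both siCtrl libraries of its batch, a pattern shown by 7.90% of all tested genes. Likewise 0 of 7 had every siNAT10 library below every siCtrl library, against 3.15%. With the replicate number as a block, 0 of 7 were called against 3.28%.

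The members' levels were then set side by side across libraries. Each gene's log2 CPM was centred on its mean over 8 libraries and averaged over the 7. That average was 0.25 in both siCtrl replicate 3 and siNAT10 replicate 3, both of batch 2. Not every member followed it: in siCtrl replicate 3, MVD stood at -0.19 and PMVK at -0.13. The average was -0.28 in siNAT10 replicate 1 and -0.30 in siNAT10 replicate 4. The siNAT10 replicates 3 and 4, of the same batch and siRNA, thus had the highest and the lowest average. The other siCtrl libraries stood at 0.10, 0.03 and -0.11 and siNAT10 replicate 2 at 0.06. Replicate 3 was the highest siCtrl library for 5 of 7 members (ACAT2, HMGCS1, MVK, IDI1 and FDPS) and the highest siNAT10 library for 6 of 7, all but MVD. In siNAT10, replicate 4 was the lowest library for 5 of 7, all but HMGCS1 and IDI1.

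Summed over the 7 genes, the arm took 548 to 780 CPM in siCtrl and 474 to 691 CPM in siNAT10, with means of 640 ± 99.3 and 572 ± 99.8 (SD, n = 4). The TMM factors followed the pattern of library averages only in part. The factor was lowest in siCtrl replicate 3 (0.949) and highest in siNAT10 replicate 4 (1.053), which also had the fewest counts. But siNAT10 replicates 1 and 3, with averages of -0.28 and 0.25, had nearly the same factor, 0.988 and 0.987. For siNAT10 replicate 2, with an average of 0.06, it was 1.03. With library size alone the FDPS and ACAT2 log2 fold changes were -0.32 and -0.16. The part of scaling in the pattern, and what else the libraries share, were not tested.

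**Figure D3:**
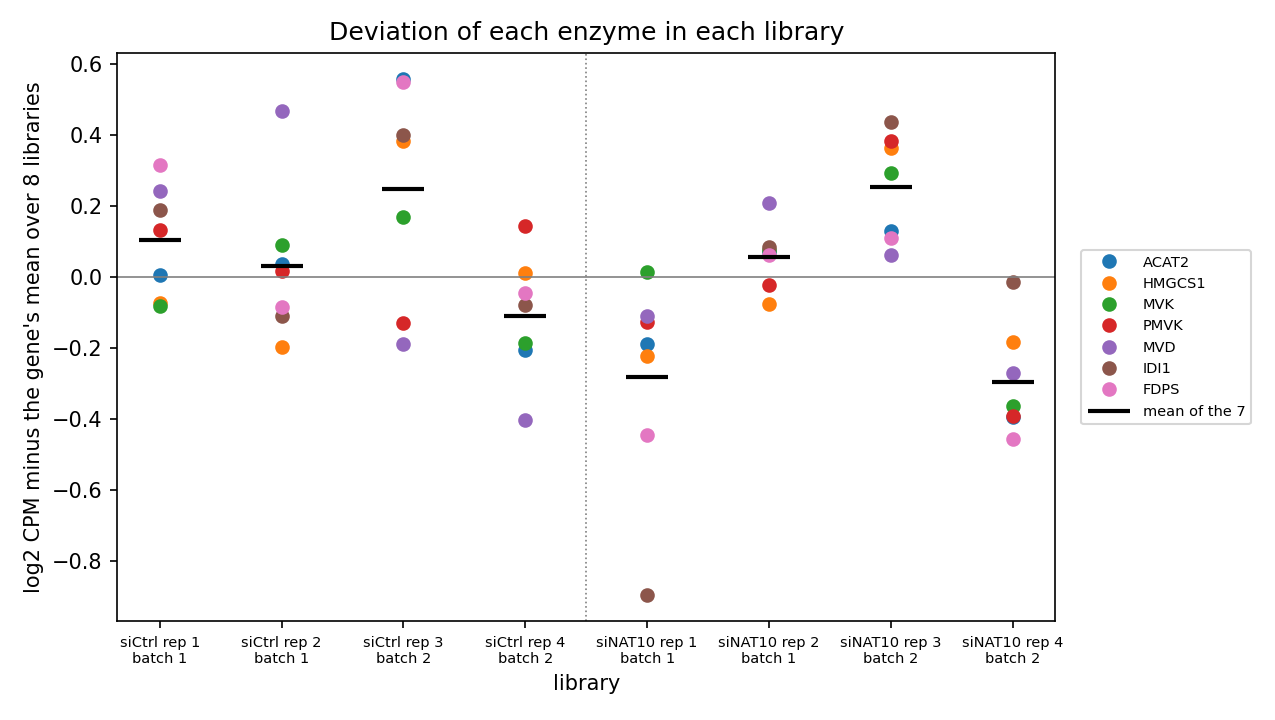
Log2 CPM of each enzyme minus its mean over all 8 libraries (y axis) in each library (x axis), with a black bar for the mean of the 7 genes. The bars stand at 0.25 in replicate 3 of both groups and at -0.28 and -0.30 in siNAT10 replicates 1 and 4.

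Which estimates hang on a single library follows from this. Leaving out siCtrl replicate 3 or siNAT10 replicate 4 raised the estimates of ACAT2, HMGCS1, MVK, IDI1 and FDPS. HMGCS1 went to 0.04 and 0.06 in these 2 fits, MVK to 0.11 and 0.14, and FDPS to -0.21 and -0.25. Leaving out siNAT10 replicate 3 took the median over the 7 to -0.23, with all 7 below 0 and 0 called.

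**Figure D4:**
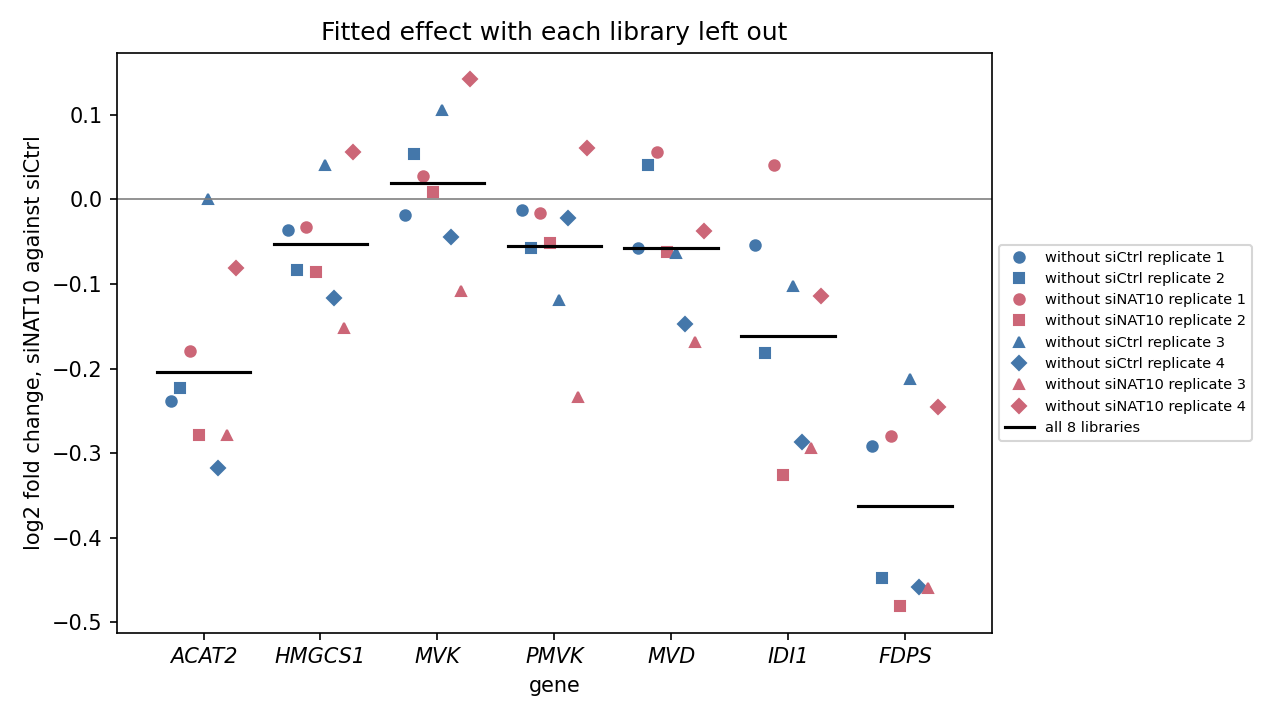
Fitted log2 fold change of each enzyme (y axis) with each of the 8 libraries left out in turn (blue, a siCtrl library; red, a siNAT10 library; the symbol gives the replicate), beside the value from all 8 (black line). FDPS stays between -0.48 and -0.21, and each of the other enzymes comes to lie on both sides of 0.

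The genes nearest to the mean member profile were found among 8452 tested genes with a symbol and at least 8 CPM, by the root mean square difference of centred log2 CPM over 8 libraries. They were CDC25B (0.0792), CDC6 (0.0804), MMAB (0.0812), TXNL4A (0.0839) and CIT (0.0840), where the median gene was at 0.292. MMAB is the gene whose RefSeq start lies close to that of MVK, as given above. It stood at 49.2, 53.0, 59.0 and 46.5 CPM in siCtrl and at 36.4, 49.0, 53.0 and 40.5 CPM in siNAT10, with a log2 estimate of -0.22 and an interval of -0.48 to 0.05 (edgeR adjusted p 0.43). Each member is itself part of that mean. MVK was the nearest member, at 0.134, and 94 of the other genes lay nearer, followed by ACAT2 at 0.137 and HMGCS1 at 0.142. FDPS was at 0.168 and PMVK at 0.182. MVD and IDI1 were the farthest, at 0.269 and 0.261, with 3395 and 3114 of the other genes nearer. A gene with the same level in all 8 libraries would be at 0.200, so MVD and IDI1 lay farther from the mean profile than such a gene.

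The other genes that start close to a member had their own values. The distances here are not between RefSeq starts, and the same measure gave 325 bases for MVK and MMAB. SOD2, the mitochondrial superoxide dismutase, starts 484 bases from ACAT2 and had a log2 estimate of -0.40 (edgeR adjusted p 0.18). WDR37 starts 419 bases from IDI1 and had -0.23 (edgeR adjusted p 0.53), where IDI1 had -0.16. SNAI3-AS1 starts 137 bases from MVD and had -0.04. The noncoding SOD2-OT1, by ACAT2, and ENSG00000270361, by PMVK, were too low to be tested.

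The rest of the pathway was set beside the arm from lists of known enzymes. Of 12 enzymes that carry farnesyl diphosphate through squalene to cholesterol, 9 were tested, 0 were called, and 9 of 9 had an estimate below 0, with a median of -0.31 against -0.06 for the mevalonate arm. At an unadjusted p under 0.05 there were 5 of 9 against 1 of 7. The difference between the lists was not tested. Of the 9, FDFT1 had few reads, 8 to 74 counts in a library, and a wide interval of -1.07 to 0.29 around its log2 estimate of -0.39. MSMO1, the sterol C4 methyl oxidase, stood at 51.9, 48.0, 36.1 and 41.4 CPM in siCtrl and at 29.9, 40.0, 29.3 and 31.1 CPM in siNAT10. Only siCtrl replicate 3 lay below a siNAT10 library. The log2 estimate was -0.44, standard error 0.11 (edgeR adjusted p 0.056). It was called in DESeq2 (adjusted p 0.023) and with the replicate block (edgeR adjusted p 0.035). DHCR7, which reduces 7-dehydrocholesterol to cholesterol, stood at 120, 124, 76.8 and 82.6 CPM in siCtrl and at 71.7, 91.6, 73.3 and 63.5 CPM in siNAT10, below both siCtrl libraries of the batch in every case. It had -0.40 (edgeR adjusted p 0.079) and was called in DESeq2 (adjusted p 0.031).

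Several pathway genes that sterol-making cells need were at or near 0 counts in all libraries. LSS had 0, CYP51A1 had 1 count in 1 library and NSDHL had 12 counts, all in siNAT10 replicate 1. INSIG1 and RNF139 of the sterol sensing list and RABGGTA of the prenylation genes had 0 as well, and the liver gene APOB had 7 counts in all. A count of 0 allows up to 0.104 to 0.293 CPM, depending on the library (3 counts, counting error only). Such a 0 says only how the gene is listed in the count table, and the reason was not tested. No mevalonate arm member was at or near 0 counts, the lowest level being the 13.5 CPM of IDI1 in siNAT10 replicate 1. Whether members lost part of their reads in counting was not tested.

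Upstream of the arm, 5 of 8 genes of acetyl-CoA supply and ketone body metabolism were tested, with 0 called and a median of -0.24. ACLY, which makes cytosolic acetyl-CoA from citrate, stood at 145, 137, 165 and 137 CPM in siCtrl and at 105, 114, 132 and 97.1 CPM in siNAT10, with no overlap. Its log2 estimate was -0.38 (edgeR adjusted p 0.088). ACAT1, the mitochondrial counterpart of ACAT2, had an estimate of 0.26 (edgeR adjusted p 0.27) where ACAT2 had -0.20.

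Downstream, 17 of 19 users of isoprenoid diphosphates were tested, with 0 called, 8 below 0 and 9 above, and a median of 0.0011. RABGGTB, a subunit of the enzyme that geranylgeranylates Rab proteins, had 0.44 (edgeR adjusted p 0.11), and COQ2 of ubiquinone synthesis had -0.31 (edgeR adjusted p 0.26).

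Of 19 sterol sensing and SREBP processing genes, 16 were tested and 0 called, with a median of 0.015. SREBF2 itself stood at 146, 182, 174 and 158 CPM in siCtrl and at 143, 146, 129 and 111 CPM in siNAT10, with an estimate of -0.33 (log2) and an interval of -0.56 to -0.09 (edgeR adjusted p 0.14). MBTPS2, the membrane protease that frees SREBPs, had 0.59 with an interval of 0.26 to 0.92 (edgeR adjusted p 0.061).

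**Figure D5:**
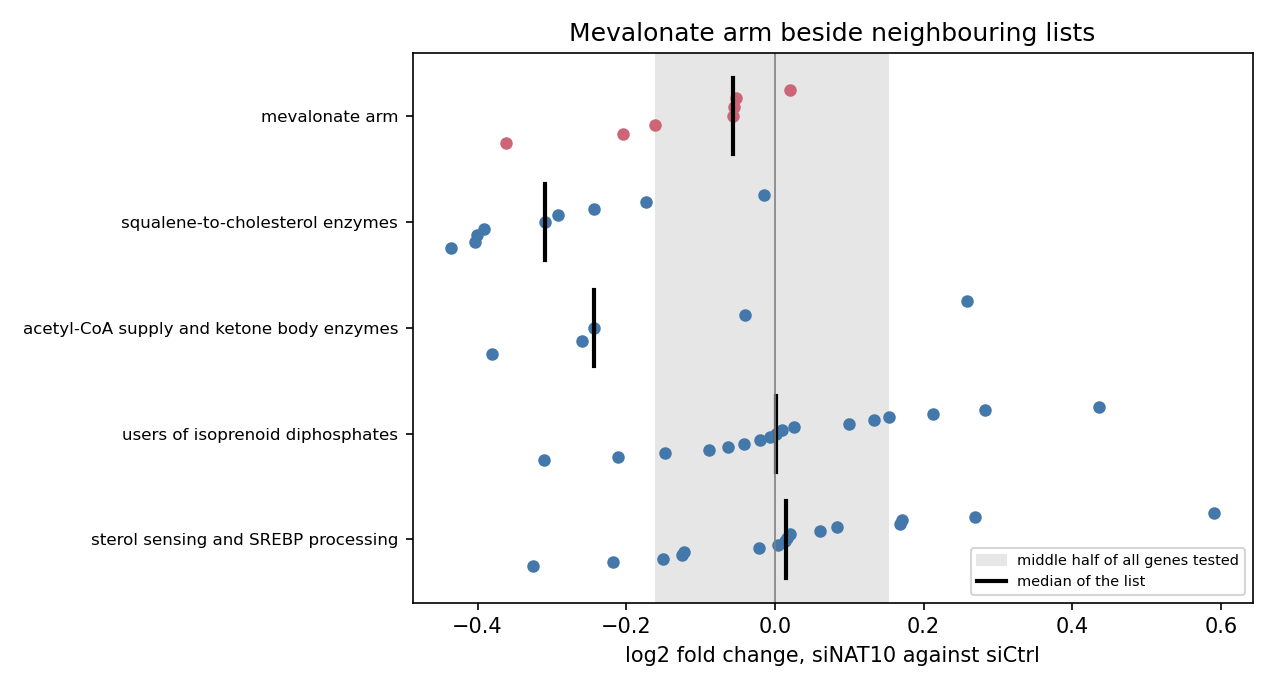
Fitted log2 fold change of siNAT10 against siCtrl (x axis) for the tested genes of the mevalonate arm (red) and of 4 neighbouring lists (blue), with a black bar at each list's median and grey shading over the interquartile range of all tested genes, -0.16 to 0.15. The arm's median is -0.06 and 4 of its 7 genes lie inside the shading, while the squalene-to-cholesterol median is -0.31.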

How the data were processed

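RNA 3' ends were counted in 8 HepG2 libraries, 4 per siRNA. The deposited values are raw counts per Ensembl gene. Per the submitters' processing notes and the series text, the authors trimmed with Trim Galore 0.6.10 and cutadapt 3.5, aligned with STAR 2.7.9a to GRCh38 and counted with featureCounts. Annotation release, strand setting and multi-mapping treatment are not given in the sources used here, and the kit is named as forward in one label and as reverse in another. A 3' tag count does not grow with transcript length. Symbols came from GENCODE 44, which matched 61458 of 86369 identifiers.

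Genes were kept by filterByExpr (minimum count 10), scaled by TMM and tested across all genes with edgeR 4.0.16 (R 4.3.3) by the quasi-likelihood F test, with batch and siRNA as additive terms and Benjamini-Hochberg adjustment. Standard errors come from the F statistic. Log2 CPM used a prior count of 2. The interaction model, each batch alone and DESeq2 1.42.0 were also run, and the edgeR script was tested on simulated data. The members and lists were chosen with earlier results of these data known. Named genes are the 7 members, NAT10, the members' annotated neighbours and IDI2, the 5 nearest profiles and, per other list, called genes or else the 2 of lowest p. Genes named for counts at or near 0, and FDFT1, FGB and HNF4A, were chosen after their values were seen.

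Same-numbered libraries deviated together across genes (r 0.39, 0.38, 0.45 and 0.36 for replicates 1 to 4), and after removal of the batch means r was -0.06 in batch 1 and 0.17 in batch 2. Little of this correlation remained within batches, and batch is already a term of the main fit. The replicate block is given as an alternative setting only.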

Additional observations from a re-analysis of the deposited data

How the results depend on the processing

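No setting called a mevalonate arm member: 0 of 7 were called in each of 17 alternatives, which changed the batch term, tool, scaling, filter, batches or libraries, and 0 had an interaction in any of its alternatives. With the replicate number as a block, 0 members were called, FDPS had -0.37 (edgeR adjusted p 0.12), and in the squalene-to-cholesterol list 1 gene was called in place of 0. That list also had 2 genes called in DESeq2 and 2 with no filter on low counts, MSMO1 and DHCR7 in both, and 0 to 1 when a library was left out (MSMO1, without siCtrl replicate 3). In batch 2 alone 3 members were lower in place of 6, with PMVK at 0.043, MVD at 0.20 and IDI1 at 0.049. With each library left out in turn, the log2 fold change ran from -0.32 to 0.00099 for ACAT2, from -0.15 to 0.056 for HMGCS1, from -0.11 to 0.14 for MVK and from -0.23 to 0.061 for PMVK. It ran from -0.17 to 0.056 for MVD, from -0.33 to 0.041 for IDI1 and from -0.48 to -0.21 for FDPS. The cause of these shifts was not tested, beyond the fewer libraries in each fit. Over all genes, 315 were called, against 575 in DESeq2, 173 in batch 1 alone and 0 in batch 2 alone. With 4 libraries a group, changes smaller than the intervals given could not be resolved.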
